A study of Mus musculus with 32 samples.

Results

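Homeostatic microglia identity genes are 31 named genes, of the 49671 genes in the count table, whose transcripts mark resting microglia and related brain macrophages. They were chosen by symbol for their known roles, by a rule that uses no measured value, and all 31 were found in the table through the Ensembl identifiers of these symbols. The cultures were primary cortical neurons from C57BL/6 (WT) mouse embryos, kept in Neurobasal medium with B27 supplement. They received no addition (untreated) or 1 of 3 oligoribonucleotides at 10 µg/mL, namely the microRNA strand miR-92a-1-5p, the strand miR-124-5p, or a mutant control sequence called Mut.oligo. Each of the 4 conditions was sampled at 6 h and at 5 d, with 4 libraries labelled as biological replicates per group, which gave 32 libraries. No cell was sorted, so that each library holds the RNA of every cell in its culture.

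Microglia are the resident macrophages of the brain, and they enter the embryonic brain from the yolk sac before most cortical neurons are born. They depend on signalling through the receptor Csf1r, fed by the ligands Csf1 and Il34, and on the transcription factor PU.1, encoded by Spi1. They survey the tissue through receptors for neuronal signals, among them Cx3cr1 for fractalkine and P2ry12 for nucleotides, and dissociated brain tissue commonly carries some of them into neuron cultures.

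Of the 3 oligoribonucleotides, the reference table held the mature sequence of miR-92a-1-5p, which is shown because Cx3cr1, the member with the smallest unadjusted p-value against untreated, had it after exposure to this sequence. The sequence is that of RefSeq, build GRCm38.p6, at chr14:115044437-115044459 on the plus strand, and the seed, bases 2 to 8, is in capitals.
mmu-miR-92a-1-5p: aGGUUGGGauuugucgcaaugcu

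PU.1 binds a purine-rich motif, searched here as GAGGAAGT on both strands in windows of 300 bases around the RefSeq gene starts. It was present in 1052 of all 32851 such windows (3.20%) and in 3 of the 26 windows found for 22 of the members. These 3 are shown 5′ to 3′ on the gene's strand, with the motif or its reverse complement in capitals, because they hold the motif of the factor that the member Spi1 encodes. The Inpp5d site lies on the plus strand at chr1:87620281-87620310, the Ctss site on the plus strand at chr3:95526773-95526802, and the Cd53 site on the minus strand at chr3:106790125-106790154 (GRCm38.p6). A match is only a description of these letters.
Inpp5d: gtttctataatGAGGAAGTtctgtgcagct
Ctss: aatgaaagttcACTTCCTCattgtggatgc
Cd53: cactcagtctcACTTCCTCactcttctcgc

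The libraries held 24514090 to 73626029 counts assigned to genes, with a median of 33021610 at 6 h and 50126395 at 5 d. The label of each library also names an experiment batch. There were 7 batches at 6 h, called A to G here in order of the numbers in their names, and 6 at 5 d, called H to M. No batch held both time points, so that time and batch cannot be told apart. Neuronal genes were abundant in every library, with a summed level of 4680 to 6270 CPM (counts scaled to a library total of 1000000) over 10 markers. Genes of astrocytes were also present, at 319 to 706 CPM over 6 markers at 6 h and 1400 to 2640 CPM at 5 d. Markers of monocytes and neutrophils were close to absent. Of 6 such markers, S100a9 was at 0 in all 32 libraries and the others reached at most 7 counts. The 7 markers of border-associated macrophages summed to 1.17 to 3.51 CPM. Ms4a7 was present in every library (30 to 116 counts), and Mrc1 reached 78 counts, whereas Cbr2 never exceeded 1 count.

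All but 1 of the 31 members were detected above 3 counts in some library, but at low levels. Together they took 53.9 to 99.8 CPM at 6 h (70.4 ± 14.2, SD, n = 16) and 57.6 to 106 CPM at 5 d (74.5 ± 14.4, SD, n = 16). Sall1 alone held 31.4% of this sum. It encodes a transcription factor of microglia identity that is also known from neural progenitors of the developing cortex. Without it, the other 30 members summed to 32.2 to 66.9 CPM at 6 h and 40.1 to 73.3 CPM at 5 d. In bulk RNA of this kind, fewer microglia and less RNA per microglial cell cannot be told apart.

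**Figure D1:**
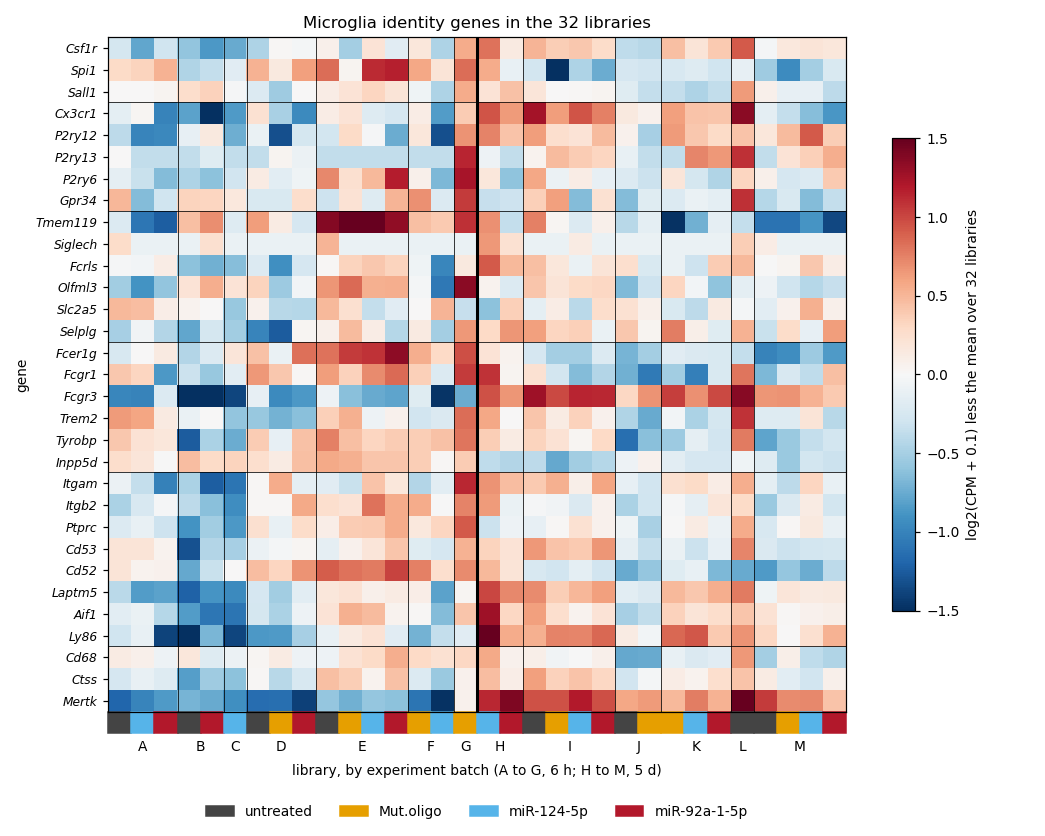
Level of each of the 31 genes (rows) in each of the 32 libraries (columns, grouped by experiment batch, with the condition as a coloured bar), as log2(CPM + 0.1) less the gene's mean over all libraries. The thick line separates 6 h from 5 d, and batches E and G at 6 h and H and L at 5 d stand out as redder columns.

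Per length of gene model, the order of the levels was led by Sall1 (4.33 ± 0.91 RPKM, counts scaled to depth and kilobases of exon; SD, n = 32) and Fcer1g, which encodes the signalling gamma chain of Fc receptors (3.93 ± 1.92 RPKM). These were followed by the lysosomal glycoprotein Cd68 (2.79 ± 0.641 RPKM), the ITAM adaptor Tyrobp (2.45 ± 0.879 RPKM), and the lysosomal protease Ctss (2.16 ± 0.537 RPKM). Csf1r, Cx3cr1, Tmem119, and P2ry12 are often used to define homeostatic microglia. Of these, Csf1r stood highest, in the middle of this order at rank 16 with 0.367 ± 0.121 RPKM. Other surface protein genes stood above it, such as Fcrls at rank 8 with 1.4 ± 0.408 RPKM. Cx3cr1 was at 0.247 ± 0.131 RPKM, Tmem119 at 0.178 ± 0.138 RPKM, and P2ry12 at 0.0665 ± 0.0382 RPKM. All 30 neighbouring pairs in this order differed by less than the larger SD of the pair, so that only distant ranks are separated. If the longest annotated transcript was used for the length, Fcer1g led at 5.03 RPKM and Cd52 came before Sall1, since genes whose longest transcript is much shorter than the gene model move up.

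A subset of members was at the edge of detection. Siglech, a lectin-like receptor of microglia, had 0 to 3 counts per library and was at 0 in 24 of 32. P2ry13, a receptor for ADP, had 0 to 9 counts and was at 0 in 15 libraries. Gpr34, a lysophospholipid receptor, had 0 to 12 counts. A floor of 3 counts corresponds to 0.0407 to 0.122 CPM at these depths, and below that a difference between groups was not detectable. P2ry12 (0 to 17 counts) and Slc2a5, a fructose transporter (2 to 10 counts), lay just above it. After the filter of at least 5 counts in 3 or more libraries, 29 members were tested at 6 h, without P2ry13 and Siglech, and 30 at 5 d, without Siglech.

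The first question was how far the members differed between experiment batches. Without Sall1, the mean summed level at 6 h was 33.0 CPM in batch B, 33.7 in the single library of C, 40.3 in A, 44.4 in both D and F, 60.3 in E, and 66.9 in the single library of G. Batches E and G therefore stood above all others, whichever condition their libraries belonged to. At 5 d the means were 40.1 CPM in J, 44.1 in M, 50.5 in K, 56.9 in I, 66.1 in H, and 71.2 in the single library of L. In batch M all 4 conditions were between 43.6 and 45.4 CPM, and in batch E between 58.2 and 63.5 CPM. Libraries of batches D (38.6 to 48.2 CPM), F (37.7 to 51.0 CPM), and H (58.9 to 73.3 CPM) lay farther apart.

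**Figure D2:**
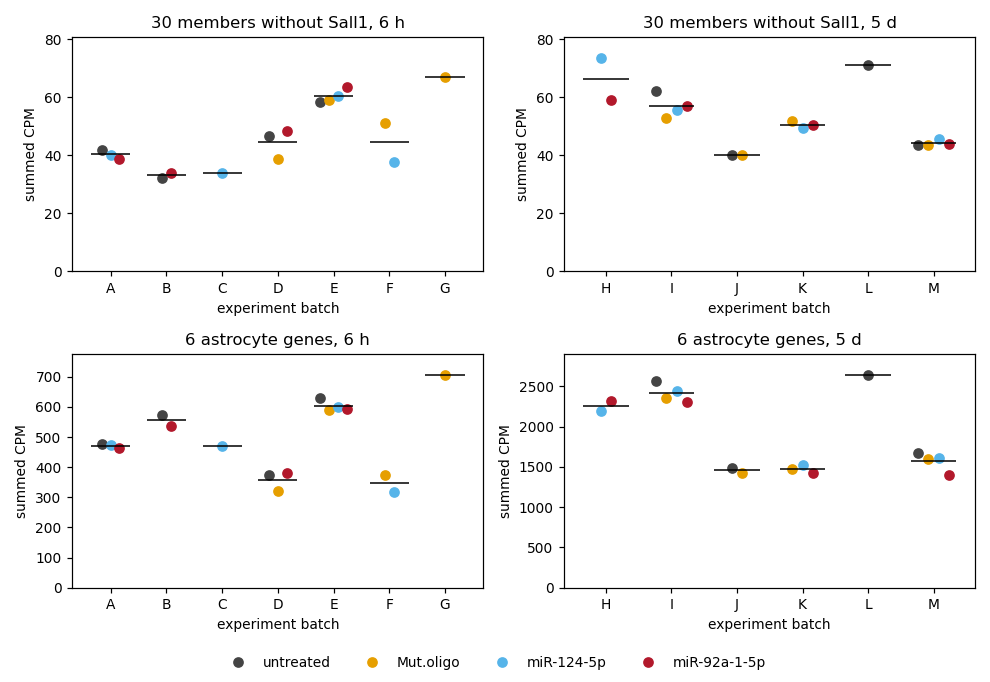
Summed CPM of the 30 members without Sall1 (top) and of the 6 astrocyte markers (bottom) in each library, by experiment batch, at 6 h (left) and 5 d (right). Points are libraries coloured by condition and lines are batch means. In the upper panels, batch M is the tightest of those with 4 libraries, and the members range from 32.2 to 73.3 CPM.

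With the condition in the fit, the experiment batch was significant for 18 of 29 members at 6 h, where 28.2% of all 18755 genes tested were called (edgeR's quasi-likelihood F test, Benjamini-Hochberg adjusted p under 0.05). At 5 d, 14 of 30 members were called, against 25.9% of 19333 genes. The share of members was thus above that of all genes at both times, although the members share their source and are not independent. The spread of batch means on the log2 scale exceeded the spread within batches for 24 of 29 members at 6 h and 25 of 30 at 5 d, against 57.7% and 55.9% of all genes. Leaving out single libraries gave 15 to 20 members at 6 h and 8 to 20 at 5 d. The lowest count at 5 d came without untreated replicate 2, and 9 members were called without miR-124-5p replicate 4 or without miR-92a-1-5p replicate 4.

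The members called in this test came from most roles. At 6 h they included 7 of the 8 leukocyte membrane genes, namely Itgam, Itgb2, Ptprc, Cd53, Cd52, Laptm5, and Aif1, all but Ly86. The adjusted p of Ptprc, which encodes the pan-leukocyte phosphatase CD45, was 0.000547, and its batch means ran from 1.0 CPM in C to 3.68 CPM in G. The lysosomal membrane protein gene Laptm5 had batch means of 2.68 CPM in B, 2.85 in C, 3.5 in A, 4.54 in D, 4.6 in F, 5.73 in G, and 6.24 in E. Tmem119, a microglial surface protein gene, had the widest range of the members called, from 0.152 CPM in A to 1.08 CPM in E (7.13-fold). The libraries of A held 3 to 9 counts of it, at or near the floor, so that this fold is uncertain. Inpp5d and Cd68 were the steadiest, with batch means within 1.27-fold and 1.33-fold of each other at 6 h, and neither was called at that time.

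At 5 d, batch L or H held the highest mean for most members, and batch J the lowest for 17 of the 30. Laptm5 was at 4.93 CPM in J and 6.03 in M, and at 7.86 in K, 8.27 in I, 9.69 in L, and 10.3 in H. Cx3cr1 ranged from 0.676 CPM in M to 2.66 CPM in L (adjusted p = 0.000114, edgeR), and Cd53, a tetraspanin of leukocytes, from 1.37 to 2.83 CPM (adjusted p = 0.000543). Both Trem2, a lipid-sensing receptor, and its adaptor partner Tyrobp were lowest in J and highest in L, at 0.226 and 0.938 CPM for Trem2 and 0.799 and 2.7 CPM for Tyrobp. None of the 5 tested members in the group of Tmem119, Fcrls, Olfml3, Slc2a5, and Selplg was called at 5 d, whereas 3 of them were at 6 h; the difference between the times was not tested.

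Markers of other cells differed between the batches as well, and not all of them followed the members. At 6 h, the 6 fibroblast and mural markers summed to 125 to 133 CPM in E and 209 CPM in G, and to 29.0 to 84.0 CPM in the other batches. At 5 d, the 6 astrocyte markers summed to 2190 to 2640 CPM in H, I, and L, in which the members without Sall1 were at 52.8 to 73.3 CPM. In J, K, and M, the astrocyte markers were at 1400 to 1670 CPM and the members at 40.1 to 51.6 CPM. The sum of the 7 border-associated macrophage markers was also lowest in B at 6 h (mean 1.41 CPM) and highest in E and G (3.11 and 3.16 CPM). At 5 d it was lowest in J and M (1.89 and 1.95 CPM) and highest in L (3.46 CPM). Most of this sum was Ms4a7, at a mean of 1.94 CPM at 6 h and 1.52 CPM at 5 d, where the sum was at 2.34 and 2.33 CPM. Other sums did not follow the members. At 6 h, batch B had the lowest member mean without Sall1 (33.0 CPM) but 556 CPM of astrocyte markers. In D and F, with members at 44.4 CPM, these markers were at 359 and 347 CPM. At 5 d, the fibroblast and mural markers were at 54.3 CPM in H and 83.0 CPM in I, where the members were at 66.1 and 56.9 CPM. The part of these other cells in the batch differences was not tested.

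The members rose and fell together to differing degrees. Once the mean of each time point was removed, Laptm5 followed the mean of the other members most closely (Pearson's r = 0.92 over 32 libraries), then Aif1, the actin-binding protein Iba1 (r = 0.882), and Ctss (r = 0.836). Inpp5d, a lipid phosphatase downstream of ITAM receptors, followed least among the 26 members with adequate counts (r = 0.105), with r = 0.478 at 6 h and -0.289 at 5 d. Sall1 was at r = 0.5. Spi1 stayed with the others at 6 h (r = 0.8) and less so at 5 d (r = 0.296). These values describe libraries that share batches and depths, and no test was made.

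By the same measure, the 10 genes outside the list most like the mean of 26 members, among 16055 genes screened, were C1qb (r = 0.913), C1qc (0.881), Rac2 (0.879), Vsir (0.876), Rassf4 (0.872), Cyba (0.852), Cyth4 (0.849), Tspo (0.844), Nckap1l (0.843), and Ms4a6d (0.83). C1qb and C1qc encode chains of complement C1q. C1qb was at a mean of 4.5 CPM at 6 h and 4.88 CPM at 5 d, and C1qc at 3.64 and 4.76 CPM.

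The second question was how the members changed from 6 h to 5 d. In untreated cultures, in which each of the 4 libraries per time came from its own batch, 10 of 30 members were called, meaning an adjusted p under 0.05 together with a change of more than 0.5 on the log2 scale, 7 higher and 3 lower at 5 d. Of all 20425 genes tested, 33.5% were called, 19.1% higher and 14.3% lower, so that the share of members was close to that of all genes. Their median log2 fold change was 0.24, and that of all genes was 0.04. Without untreated 5 d replicate 1, 5 members were called. Over all 4 conditions, 14 of 30 members were called, 9 higher and 5 lower, against 41.4% of all genes (23.3% higher and 18.1% lower), with a median of -0.03 for members and 0.02 for all genes. Libraries of a batch share their source in the second comparison, and with libraries summed by batch, 13 members were called, 8 higher and 5 lower, which are the same genes without P2ry13 (39.9% of all genes, 22.4% higher and 17.5% lower).

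**Figure D3:**
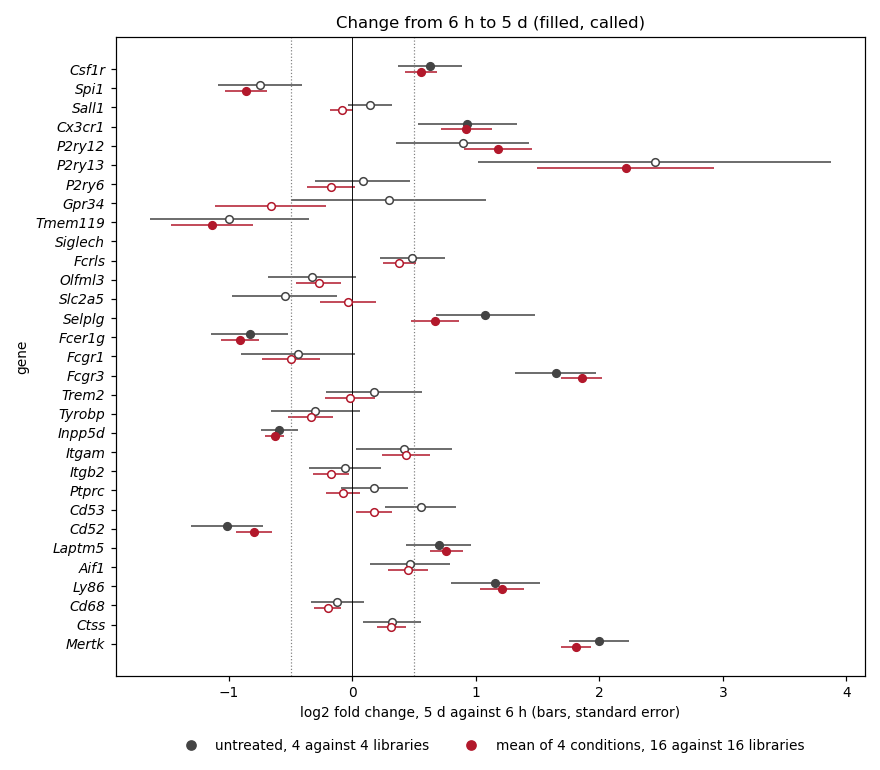
Log2 fold change at 5 d against 6 h for each member tested, in untreated cultures (grey) and as the mean of the 4 conditions (red). Bars are standard errors, filled points are called, and dotted lines mark the log2 fold change of 0.5. Mertk and Fcgr3 lie far to the right, and Spi1, Tmem119, Fcer1g, Inpp5d, and Cd52 to the left.

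Among the receptor and lineage factors, Csf1r rose and Spi1 fell. Csf1r was at 1.43, 1.3, 1.66, and 2.12 CPM in untreated libraries at 6 h and at 2.92, 1.53, 3.91, and 1.97 CPM at 5 d. The groups overlapped, and the log2 fold change was 0.63 (SE 0.259, adjusted p = 0.0391, edgeR) and 0.55 over the 4 conditions (SE 0.129, adjusted p = 0.000319). Spi1 had a median of 1.57 CPM at 6 h (0.811 to 2.69, n = 16) and 0.921 CPM at 5 d (0.317 to 1.73), a log2 fold change of -0.86 (SE 0.171, adjusted p = 4.47e-05). In untreated cultures alone Spi1 was not called (-0.74, SE 0.341, adjusted p = 0.0651). Sall1 had a median of 22.7 CPM at 6 h (15.4 to 32.9) and 21.5 CPM at 5 d (16.1 to 34.9), with a log2 fold change of -0.09 (95% interval -0.27 to 0.10).

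Of the G protein-coupled receptors, Cx3cr1 rose. In untreated libraries it was at 1.16, 0.519, 0.875, and 1.06 CPM at 6 h and 2.45, 1.09, 2.66, and 0.876 CPM at 5 d (log2 fold change 0.93, SE 0.4, adjusted p = 0.0492, edgeR). Its lowest value at 5 d, in batch M, was within the 6 h range. Over the 4 conditions the value was 0.92 (SE 0.206, adjusted p = 0.00018). P2ry12 was at 0.0905 to 0.133 CPM in untreated libraries at 6 h and 0.161 to 0.286 CPM at 5 d, from 3 to 17 counts, and was called only over the 4 conditions (1.18, SE 0.275, adjusted p = 0.000324). P2ry13 passed the test over the 4 conditions too, but with 0 to 5 counts at 6 h and 0 to 9 at 5 d no fold is given, and it was not called with libraries summed by batch (adjusted p = 0.0836). Over all 16 libraries of each time, P2ry12 had a median of 0.107 CPM at 6 h (0 to 0.298) and 0.232 CPM at 5 d (0.0764 to 0.374). P2ry6, a UDP receptor of phagocytes, was at a median of 0.529 CPM at 6 h (0.322 to 1.49) and 0.526 CPM at 5 d (0.341 to 0.907).

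The other identity genes moved in both directions. Selplg, the P-selectin ligand, was at 0.0995, 0.13, 0.181, and 0.318 CPM in untreated libraries at 6 h and 0.504, 0.422, 0.469, and 0.215 CPM at 5 d (log2 fold change 1.08, SE 0.402, adjusted p = 0.0242, edgeR). Tmem119 went the other way, from a median of 0.486 CPM at 6 h (0.0825 to 1.18) to 0.235 CPM at 5 d (0.0539 to 0.622), and was called over the 4 conditions (-1.14, SE 0.333, adjusted p = 0.00293). These ranges overlap widely, and the 6 h median lies between batches A and E, which differ 7.13-fold. The level in A rests on 3 to 9 counts per library. Fcrls, an Fc receptor-like gene of microglia, passed the p threshold but not that of size (0.38, adjusted p = 0.0108), with a median of 3.01 CPM at 6 h (1.54 to 4.16) and 3.57 CPM at 5 d (2.5 to 6.02). Olfml3, a secreted matrix protein gene, had a median of 1.88 CPM at 6 h (0.715 to 4.28) and 1.48 CPM at 5 d (0.986 to 2.18) and was not called.

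Of the Fc receptor and ITAM signalling genes, 1 rose and 2 fell. Fcgr3, the low-affinity IgG receptor III, was at 0.796, 0.227, 0.392, and 0.822 CPM in untreated libraries at 6 h and at 2.25, 1.11, 2.4, and 1.44 CPM at 5 d. No library of one time reached the other, also over all 16 libraries of each time (0.19 to 0.822 and 1.11 to 2.4 CPM). Of all genes, 24.8% were free of overlap over all 16 libraries of each time, and 46.8% in untreated libraries. The log2 fold change of Fcgr3 over the 4 conditions was 1.86 (SE 0.168, adjusted p = 2.25e-11, edgeR). Its extracellular exons resemble those of Fcgr2b, so that its level is less certain. Fcer1g, whose product assembles with that receptor, fell from 4.28, 2.27, 2.63, and 5.57 CPM to 2.6, 1.89, 2.42, and 1.5 CPM in untreated libraries, by 0.83 on the log2 scale (SE 0.313, adjusted p = 0.0257).

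Inpp5d fell with no overlap in untreated libraries, which were at 4.74, 5.48, 4.77, and 5.91 CPM at 6 h and 2.99, 3.76, 3.79, and 3.44 CPM at 5 d (log2 fold change -0.59, SE 0.15, adjusted p = 0.00128, edgeR). Such a lack of overlap in untreated libraries was found for 46.8% of all genes. Trem2 had a median of 0.38 CPM at 6 h (0.201 to 0.781) and 0.386 CPM at 5 d (0.191 to 0.938), and its interval over the 4 conditions reached from -0.43 to 0.39 on the log2 scale. Tyrobp had a median of 2.01 CPM at 6 h (0.584 to 2.75) and 1.31 CPM at 5 d (0.644 to 2.7) and was not called (log2 fold change -0.34, adjusted p = 0.0957). The high-affinity receptor Fcgr1, at medians of 0.574 and 0.322 CPM, was not called either.

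Of the 8 leukocyte membrane genes, Laptm5 and Ly86 rose and Cd52 fell. Laptm5 went from 4.71, 2.37, 4.22, and 6.36 CPM in untreated libraries to 9.23, 5.03, 9.69, and 5.35 CPM (log2 fold change 0.70, SE 0.263, adjusted p = 0.0257, edgeR). Ly86, the MD-1 partner of a Toll-like receptor homologue, went from 0.398, 0.162, 0.634, and 0.742 CPM to 1.21, 0.885, 1.35, and 1.02 CPM (1.16, SE 0.363, adjusted p = 0.00792). These values did not overlap, as was found for 46.8% of all genes in untreated libraries. Cd52, a small GPI-anchored glycoprotein gene, fell from 3.18, 1.3, 2.63, and 4.37 CPM to 1.92, 1.31, 1.31, and 1.22 CPM (-1.01, SE 0.294, adjusted p = 0.00437).

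The integrin chains and the other membrane genes were not called over time. Itgam and Itgb2 encode both chains of the complement receptor CR3. Itgam had a median of 0.427 CPM at 6 h (0.149 to 1.19) and 0.607 CPM at 5 d (0.347 to 0.84), and Itgb2 of 1.5 CPM (0.725 to 2.67) and 1.39 CPM (0.975 to 2.36). Ptprc was at 2.08 CPM (0.973 to 3.68) and 1.85 CPM (1.32 to 2.83). The ranges of all these genes overlap widely between the times, as do those of Cd53, at 1.67 CPM (0.616 to 2.45) and 1.54 CPM (1.28 to 2.83), and Aif1, at 1.17 CPM (0.55 to 1.92) and 1.52 CPM (0.885 to 3.27). Aif1 passed the p threshold but not that of size (log2 fold change 0.45, adjusted p = 0.0126, edgeR), and so did Itgam (0.43, adjusted p = 0.0454). Itgam shares 68.7% of its exonic bases on the same strand with Gm49368, listed at 0 counts in every library, so that its level is uncertain.

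Of the phagocytosis genes, Mertk, a receptor tyrosine kinase for the bridging ligands Gas6 and Pros1, had the largest change of the members called in untreated cultures (ENSMUSG00000014361, GRCm38 chr2:128698956-128802894, plus strand). It was at 1.53, 2.11, 1.48, and 2.31 CPM in untreated libraries at 6 h and at 6.89, 5.25, 10.7, and 7.3 CPM at 5 d (log2 fold change 2.00, SE 0.243, adjusted p = 4.59e-08, edgeR). All 16 libraries at 5 d (4.74 to 10.7 CPM) lay above all 16 at 6 h (1.18 to 3.64 CPM). Of the 30 members tested, 2 were separated in this way, Fcgr3 and Mertk, against 24.8% of all genes tested in one direction or the other. In untreated libraries alone, 5 members did not overlap between the times, P2ry12, Fcgr3, Ly86, and Mertk higher and Inpp5d lower at 5 d, against 46.8% of all genes. Mertk is also known from astrocytes, whose 6 markers went from a mean of 493 ± 117 CPM to 1900 ± 472 CPM (SD, n = 16 each) over the same interval, and their part in the rise was not tested. Cd68 and Ctss were not called, with a median of 3.74 CPM at 6 h (2.97 to 5.03) and 3.22 CPM at 5 d (1.97 to 5.43) for Cd68, and 2.47 CPM (1.56 to 3.92) and 3.1 CPM (2.31 to 4.4) for Ctss.

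The ligands and regulators of these receptors, a list of 17 other genes, mostly rose over time. In untreated cultures 10 were higher and 2 lower at 5 d, where 33.5% of all genes were called. Over the 4 conditions 13 were higher and 1 lower, with a median log2 fold change of 0.79, where 41.4% of all genes were called with a median of 0.02. Cx3cl1, the fractalkine ligand of Cx3cr1 made by neurons, went from 54.1 ± 7.37 CPM to 166 ± 15.4 CPM (SD, n = 16 each; log2 fold change 1.63, SE 0.054, adjusted p = 6.86e-22, edgeR). The Csf1r ligand Il34 went from 0.483 to 1.43 CPM (1.59, SE 0.113, adjusted p = 8.47e-14) and Csf1 from 11.1 to 19.6 CPM (0.84, SE 0.15, adjusted p = 9.82e-06).

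The ligands of Mertk rose as well, Gas6 from 48.8 to 72.3 CPM and Pros1 from 4.04 to 7.94 CPM. Axl, another receptor of Gas6, rose from 13.4 to 30.8 CPM. Cd47 and its receptor Sirpa, a pair that restrains phagocytosis, rose from 123 to 211 CPM and from 89.1 to 279 CPM. Cd200, another restraining ligand of neurons, rose from 294 to 427 CPM over the 4 conditions, and in untreated cultures it passed the p threshold but not that of size (log2 fold change 0.44, adjusted p = 7.93e-06, edgeR). Its microglial receptor Cd200r1 had 0 to 9 counts at 6 h and 4 to 17 at 5 d, so that no fold is given, and it was called over the 4 conditions but not in untreated cultures (adjusted p = 0.296). Irf8 and Runx1, transcription factors of the myeloid lineage, rose from 0.859 to 1.26 CPM and from 0.38 to 0.647 CPM, while Spi1 fell. Tgfbr1, a receptor for TGF-beta, was the one gene lower over the 4 conditions, from 71.0 to 40.5 CPM. Most of these genes are expressed by neurons or astrocytes too, and the bulk libraries do not assign them to a cell.

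The third question was whether exposure to an oligoribonucleotide changed the members. No member was called against untreated at either time, for any of the 3 sequences (edgeR, 0 of 29 members in each comparison at 6 h and 0 of 30 at 5 d). Of all genes, 0% were called in each comparison at 6 h and 0.00517% for miR-92a-1-5p and 0% for the other two at 5 d. The 3 comparisons at a time share their untreated libraries. Unadjusted p-values under 0.05 were found at 6 h for 1 member (miR-92a-1-5p) and for 0 in the others, and at 5 d for 0 (miR-92a-1-5p), 3 (miR-124-5p), and 1 (Mut.oligo). Of all genes, 4.75% (miR-92a-1-5p), 4.54% (miR-124-5p), and 9.49% (Mut.oligo) had such a p at 6 h, and 3.63%, 2.6%, and 2.79% at 5 d. DESeq2 also called 0 members in each comparison. Against Mut.oligo, 0 members were called after either microRNA strand at both times (0% of all genes), with 2 members (miR-92a-1-5p) and 1 member (miR-124-5p) at an unadjusted p under 0.05 at 6 h and 0 at 5 d, where 2.12% and 3.58% of all genes were at 6 h and 1.98% and 1.68% at 5 d. No member's groups of libraries were free of overlap in any of these 10 comparisons. Of all genes, 3.57% (miR-92a-1-5p), 3.34% (miR-124-5p), and 4.43% (Mut.oligo) were free of overlap with untreated at 6 h, and 2.56%, 1.44%, and 1.98% at 5 d. Against Mut.oligo the shares were 1.14% and 2.28% at 6 h and 1.76% and 1.16% at 5 d, again with miR-92a-1-5p before miR-124-5p.

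**Figure D4:**
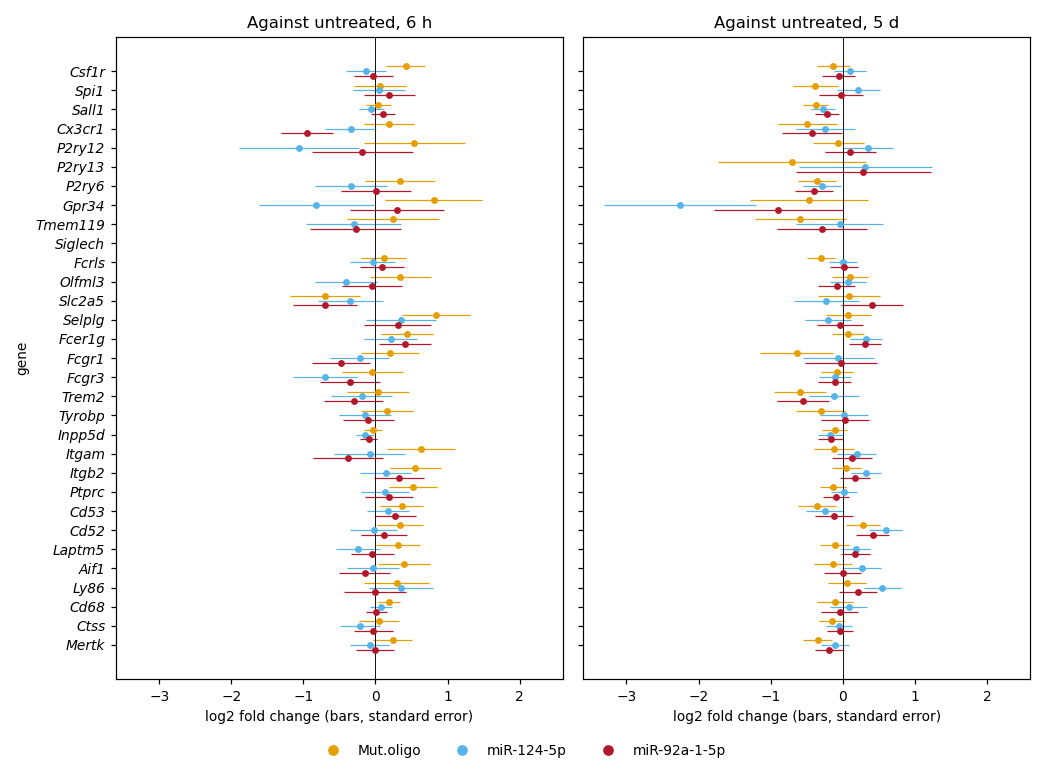
Log2 fold change of each member tested after Mut.oligo (orange), miR-124-5p (blue), and miR-92a-1-5p (red) against untreated, at 6 h (left) and 5 d (right), with standard errors as bars. No value is called. Most lie within 1 of 0, and the wide bars belong to genes with few counts such as Gpr34, P2ry12, and P2ry13.

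The depth and the spread between batches bound what could be seen. The median standard error of a member's log2 fold change against untreated was 0.357 to 0.364 at 6 h and 0.259 to 0.261 at 5 d. The 95% interval lay within 1 on the log2 scale in both directions for 16 of the 29 members after each microRNA strand and 14 after Mut.oligo at 6 h. At 5 d it did so for 23 of the 30 members (miR-92a-1-5p), 21 (miR-124-5p), and 22 (Mut.oligo). For Csf1r after miR-92a-1-5p at 6 h, for example, the value was -0.03 and the interval -0.61 to 0.54.

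The members' values differed between the fits with and without the batch. Against untreated at 6 h, 26 of 29 members had a positive log2 fold change in the Mut.oligo libraries, with a median of 0.29. One of these 4 libraries is the only one of batch G, which had the highest summed level at 6 h. With the batch in the model, 11 of 29 were positive and the median was -0.02. The members' summed level without Sall1 at 6 h was 44.7 ± 10.8 CPM in untreated, 53.9 ± 12.1 with Mut.oligo, 43.0 ± 11.9 with miR-124-5p, and 46.1 ± 13.1 with miR-92a-1-5p (SD, n = 4 each). At 5 d it was 54.2 ± 14.9 CPM in untreated and 47.1 ± 6.13, 55.9 ± 12.3, and 52.6 ± 6.86 CPM in the libraries labelled with the same 3 names. At each time, any pair of these means differs by less than the larger SD of the pair.

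With the batch as a covariate, the median standard error was 0.194 to 0.242 at 6 h and 0.185 to 0.202 at 5 d. Against untreated, 0 members were called (edgeR), where 0.208% (miR-92a-1-5p), 0% (miR-124-5p), and 0.0213% (Mut.oligo) of all genes were at 6 h and 0.352%, 0.0259%, and 0.0466%, in this order, at 5 d. DESeq2 with this covariate called 0 members and 0.139%, 0.00533%, and 0.0427% of all genes at 6 h and 0.61%, 0.0879%, and 0.0879% at 5 d. Against Mut.oligo, 0 members were called too, with 0% of all genes at 6 h and 0.0103% and 0% at 5 d by edgeR, and 0.00533% and 0%, then 0.0672% and 0%, by DESeq2. At an unadjusted p under 0.05 against untreated, edgeR gave 2, 1, and 0 of 29 members at 6 h, and 13.4%, 5.79%, and 8.47% of all genes. At 5 d it gave 1 of 30 members in each comparison, and 10.8%, 4.79%, and 4.2% of all genes. Against untreated, the share of members was thus below that of all genes for miR-92a-1-5p at both times, but it rests on 2 and 1 members. Against Mut.oligo at 6 h it was above, with 3 of 29 members (10.3%) and 2.8% of all genes after miR-92a-1-5p. At 5 d, 0 of 30 members and 8.87% of all genes had such a p in this comparison. For the other microRNA strand against Mut.oligo, 0 members had one, where 4.38% of all genes did at 6 h and 2.8% at 5 d. The direction therefore differed between comparisons.

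The member with the smallest unadjusted p against untreated was Cx3cr1 after miR-92a-1-5p at 6 h (Ensembl ENSMUSG00000052336, GRCm38 chr9:119901616-120069879, minus strand). It was at 0.875, 0.519, 1.16, and 1.06 CPM in the untreated libraries of batches A, B, D, and E, and at 0.44, 0.231, 0.457, and 0.806 CPM in the miR-92a-1-5p libraries of the same batches. Each treated library was thus below its untreated partner, although the groups overlapped. The log2 differences were -0.97, -1.17, -1.33, and -0.39. They rest on 29, 16, 35, and 40 counts in untreated and 16, 17, 21, and 33 counts after miR-92a-1-5p. In batch B, these libraries held 30821495 (untreated) and 73626029 (miR-92a-1-5p) counts in all. Of all genes, 24.9% moved in one direction in all 4 shared batches, as did 5 of the 29 members, Cx3cr1 and Slc2a5 downward and Spi1, Sall1, and Fcer1g upward.

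The log2 fold change of Cx3cr1 was -0.95 (SE 0.36, unadjusted p = 0.0174, adjusted p = 0.999, edgeR) without the covariate and -0.92 (SE 0.265, unadjusted p = 0.00345, adjusted p = 0.131) with it, so that it did not pass the correction. Against Mut.oligo at 6 h it was -1.14 (SE 0.361, adjusted p = 1.00) without the covariate and -0.83 (SE 0.324, adjusted p = 1.00) with it, and the log2 differences in the shared batches D and E were -0.55 and -0.51. At 5 d it was lower after miR-92a-1-5p in both batches shared with untreated, I and M, by 0.51 and 0.82 on the log2 scale, and the value with the covariate was -0.53 (SE 0.169, adjusted p = 0.261). Measured against the same untreated libraries at 5 d, Cx3cr1 was also lower in those labelled Mut.oligo in 3 of 3 shared batches and in those labelled miR-124-5p in 2 of 2. At 6 h, its log2 differences from untreated were -0.78 in D and 0.12 in E after Mut.oligo. After miR-124-5p they were 0.18 in A and -0.32 in E. The difference between the effects of miR-92a-1-5p at 5 d and 6 h was not called for any member (0% of all genes).

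**Figure D5:**
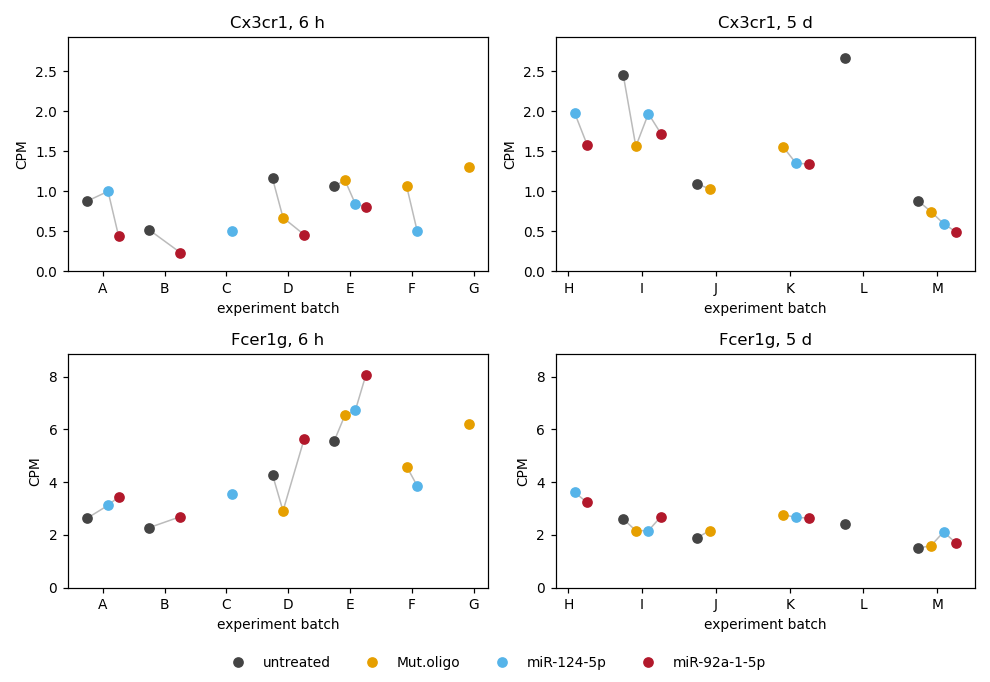
CPM of Cx3cr1 (top) and Fcer1g (bottom) in each library by experiment batch at 6 h (left) and 5 d (right), with lines joining libraries of one batch. At 6 h, Cx3cr1 is lower and Fcer1g higher after miR-92a-1-5p (red) than in untreated (grey) in batches A, B, D, and E.

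In the same 4 batches at 6 h, exposure to miR-92a-1-5p went with more Fcer1g. The untreated libraries of A, B, D, and E were at 2.63, 2.27, 4.28, and 5.57 CPM and those exposed to miR-92a-1-5p at 3.44, 2.69, 5.62, and 8.06 CPM, which are log2 differences of 0.39, 0.24, 0.39, and 0.53. With the covariate the log2 fold change was 0.41 (SE 0.125, unadjusted p = 0.00473, adjusted p = 0.147, edgeR), below the size required for a call and not significant after correction. Fcer1g was also higher than untreated after miR-124-5p in both shared batches at 6 h, by 0.25 in A and 0.27 in E. After Mut.oligo the 6 h differences were -0.55 in D and 0.23 in E. At 5 d the differences after miR-92a-1-5p in I and M were 0.05 and 0.17.

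Without the covariate, the other members with an unadjusted p under 0.05 against untreated were Gpr34, Cd52, and Ly86 for miR-124-5p at 5 d and Sall1 for Mut.oligo at 5 d. With it, they were Fcgr3 for miR-124-5p at 6 h (log2 fold change -0.94, adjusted p = 0.824, edgeR) and Sall1 at 5 d for miR-124-5p (-0.24, adjusted p = 0.892) and Mut.oligo (-0.18, adjusted p = 1.00). At 5 d, libraries with the label miR-124-5p had Cd52 at 3.25, 2.06, 2.11, and 1.32 CPM, and untreated ones at 1.92, 1.31, 1.31, and 1.22 CPM (log2 fold change 0.60, SE 0.233, adjusted p = 1.00, edgeR). The highest of these libraries belongs to batch H, which holds no untreated library. Gpr34 had 0 to 2 counts in these libraries and 0 to 12 in untreated, so that no fold is given. Of the 17 ligands and regulators, 0 were called in any of these comparisons, with or without the covariate.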

How the data were processed

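The authors sequenced stranded, poly(A)-selected RNA libraries, aligned the reads with STAR to GRCm38, and assigned them to genes with featureCounts of the Subread package. They deposited raw counts, whole numbers per Ensembl gene and library, which were used here without change. All 32 columns matched a sample label, and symbols were found for 49326 of 49671 genes in GENCODE M21 tables of the same build. CPM were computed from library totals, and RPKM from union exon lengths. Genes with at least 5 counts in 3 or more libraries of a fit were tested with edgeR 4.0.16 (R 4.3.3; TMM, quasi-likelihood F test, Benjamini-Hochberg over all genes tested). A call needed an adjusted p under 0.05 and a change of more than 0.5 on the log2 scale. Standard errors were derived from the F statistic. Oligoribonucleotide comparisons used the 16 libraries of a time point, comparisons of time all 32, and within-batch differences log2 CPM with 0.5 added to each count. Alternative fits added the experiment batch or a replicate block, used DESeq2 1.42.0, RLE size factors, other filters or no minimum fold, kept the compared groups alone, or dropped single libraries. Summing libraries by batch and leaving out Sall1 were added after seeing the data. Scripts were tested on simulated data, in which the batch test called more unchanged genes than its nominal rate. The members and lists were chosen with earlier results of these data known. All members are accounted for, by role, and the genes outside the list are a fixed list of ligands and regulators and the 10 genes most correlated with the members (at least 10 counts in 16 or more libraries). The counts carry no molecular identifiers, and the floors cover counting error only. Standard errors and intervals come from the fits and include the spread between the libraries fitted. Groups followed the labels, and whether the names miR-124-5p and Mut.oligo at 5 d were assigned correctly was not tested.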

Additional observations from a re-analysis of the deposited data

Results flagged for a closer look

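In each group of 4 libraries, the highest and lowest CPM of each tested member were compared with the gap to the nearest of the others (Dixon's test). Of 236 such sets, 10 held an outlying library, and chance alone marks about 1 in 20. At 6 h these were Fcgr1 at 1.0 CPM in Mut.oligo replicate 4, the single library of batch G (others 0.571 to 0.602 CPM), Laptm5 at 5.95 CPM in miR-124-5p replicate 1 (others 2.85 to 3.18), and Cd68 at 5.03 CPM in miR-92a-1-5p replicate 3 (others 2.97 to 3.24), the latter pair from batch E. At 5 d, Cd52 was at 1.92 CPM in untreated replicate 1 (others 1.22 to 1.31), and Aif1 at 3.27 CPM in miR-124-5p replicate 1 of batch H (others 1.34 to 1.49). In the libraries labelled Mut.oligo at 5 d, Tyrobp was at 1.8 CPM in replicate 1 (others 0.955 to 1.02), Gpr34 at 0.139 CPM in the same library (others 0.033 to 0.0382), Ptprc at 1.32 CPM in replicate 2 (others 1.89 to 1.92), and Slc2a5 at 0.0899 CPM in replicate 3 (others 0.132 to 0.139). Slc2a5 was at 0.22 CPM in miR-124-5p replicate 4 at 5 d (others 0.0454 to 0.0689). The values of Gpr34 and Slc2a5 rest on 10 counts or fewer. No difference between the effects at 5 d and 6 h was called for a member.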

How the results depend on the processing

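The count of 0 members called in each oligoribonucleotide comparison, and in each difference between the times, held under every alternative run and without each library (0 to 0). Over time, the main fits called 33.5% of all genes in untreated cultures and 41.4% over the 4 conditions. Without single libraries, 5 to 10 members were called in untreated cultures, the lowest without untreated 5 d replicate 1, and 14 to 16 over the 4 conditions. The shares of all genes in these and the next alternative fits are not given here, so that the counts describe only how the calls varied. Requiring at least 10 counts in every library left 18 members to test and 8 called over the 4 conditions, since fewer genes were tested. The experiment batch was called for 15 to 20 members at 6 h and 8 to 20 at 5 d without single libraries, of which 8 came without untreated replicate 2, and 9 without miR-124-5p replicate 4 or without miR-92a-1-5p replicate 4; the cause was not tested. No called log2 fold change reversed.

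The replicate numbers partly followed the experiment batches at 5 d, where batch M holds replicate 4 of all 4 conditions, but not every pair with the same number deviated together. Correlations of deviations from the group means ran from -0.26 to 0.31 between libraries with the same number at 6 h and from -0.22 to 0.42 at 5 d, with medians of -0.05 and 0.11 (-0.01 and -0.06 between other numbers), and 1 of 16 and 8 of 16 libraries correlated best with their own number. With the replicate block, 8 members were called over time in untreated cultures and 15 over the 4 conditions, and 0 in each oligoribonucleotide comparison. The share of all genes called with this block is not given here. Without Sall1, the summed level moved by more than 1 SD in all 8 groups, as its share requires. The low counts of P2ry12, P2ry13, Gpr34, Siglech, and Slc2a5 limit what these depths show for them.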
